A study of Mus musculus with 71 samples.

Results

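The lists of H3K27me3 peaks of wild-type (WT) mouse embryonic stem cells (mESCs) and of cells without the linker histones H1c, H1d and H1e (H1-TKO) are described here by the genes beside the peaks. Every peak on an assembled chromosome of the mm9 build was kept, and each was given the gene whose start lay nearest to the centre of the peak. This left 6789 WT and 6107 H1-TKO peaks, 12896 of the 13219 peaks in the deposited lists, and they fell to 5821 of the 37273 annotated genes. The WT cells were the parental R1 line and the H1-TKO cells a CRISPR-Cas9 knockout of the 3 genes in that line, grown from 1 cell as a clone, and both were cultured with serum and the cytokine LIF. Chromatin was crosslinked, sonicated and precipitated with an antibody against H3K27me3, with fly chromatin added as a spike-in. There was 1 peak list per genotype, so nothing here has a replicate check, no test was run, and every value compares these 2 lists rather than the genotypes in general. The study followed how H3K27me3 is restored after DNA replication and what the linker histone contributes to it.

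H3K27me3, the trimethylation of lysine 27 of histone H3, is laid down by the Polycomb complex PRC2 and read by the PRC1 complex. In mESCs it lies at CpG-rich starts of genes that are kept silent until differentiation, among them genes for homeobox and other transcription factors, secreted signals, and receptors and channels of neurons. Linker histone H1 binds the nucleosome at the entry and exit of its DNA and compacts the chromatin fibre. H1c, H1d and H1e are among the somatic variants encoded in the histone cluster on chromosome 13, and the other variants remain in the knockout.

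Peak scores were −10 log10 of the p-value of the peak caller, from 50 upwards to a ceiling of 3100. Since such a score grows with sequencing depth, classes and gene lists were compared by rank. The percentile of a peak is the share of its own list with a score no higher than its own. A gene carries the percentile of its highest peak. Scores named for single genes are as listed, not adjusted for depth, and a pair of them is not a rank comparison. The median score was 78.1 in the WT list and 75.7 in the H1-TKO list, and the median peak centre lay 1587 bp and 1543 bp from a gene start. The study states raw read numbers that are nearly equal for both libraries, and the number of reads behind each peak is not in the lists. Intervals below are exact binomial (Clopper-Pearson, 95%) and cover counting error only. The RNA-seq tables of the same series served only to grade expression, over their 4 libraries together. The reason is that the sample titles and the names of the deposited tables give opposite genotypes. In these libraries the mESC markers Sox2, Zfp42, Klf4 and Dppa5a were at 673 to 14435 normalised counts and Tdgf1 at 2228 to 3503, while Gata6 and T, markers of endoderm and mesoderm, were at 5.43 to 22.0. Of the other markers of differentiated cells, Cdx2 was at 0.00 to 26.4, Col1a1 at 34.2 to 196 and Vim at 826 to 1975. Nanog, Esrrb, Sox17 and Pax6 have several transcript accessions in the tables, listed between 0.00 and 20.7, and were not read. RNA of the knocked-out genes did not check the genotype, since Hist1h1c (H1c) was at 7.37 to 56.7, Hist1h1d (H1d) at 0.00 to 41.4 and Hist1h1e (H1e) at 0.00 to 19.6 normalised counts over all 4 libraries.

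Sequences of 150 bases around the centres of 5 peaks show DNA of the lists from a CpG-rich window to one without a CpG. They were read from the mm9 reference, plus strand, 5′ to 3′, with each CpG in capitals, and peaks whose window holds an annotated exon were passed over, among them some that scored higher. The first is a highest-scoring exon-free window of the genes in both lists, outside any gene beside the pseudogene AY036118 (score 3100, the ceiling, at chr17:39981758-39981907). The next 2 are the highest exon-free windows of the genes in the WT list only, upstream of Lingo2 (237, chr4:36899201-36899350), and of the genes in the H1-TKO list only, in an intron of Zcchc2 (291, chr1:107888318-107888467). 9930013L23Rik has the highest such window of the coding genes in WT only with no overlapping H1-TKO peak (231, intronic, chr7:91234491-91234640). The last is a peak of the WT list in the Hoxd cluster, in introns of Hoxd3 and Hoxd4 beside Mir10b (99.7, chr2:74562467-74562616).
AY036118: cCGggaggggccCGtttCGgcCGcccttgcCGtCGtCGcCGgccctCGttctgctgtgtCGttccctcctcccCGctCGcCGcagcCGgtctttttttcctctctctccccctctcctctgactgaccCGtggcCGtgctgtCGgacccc
Lingo2: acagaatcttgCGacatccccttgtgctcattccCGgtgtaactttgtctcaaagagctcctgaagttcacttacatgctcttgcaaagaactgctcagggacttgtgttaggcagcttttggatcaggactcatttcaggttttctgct
Zcchc2: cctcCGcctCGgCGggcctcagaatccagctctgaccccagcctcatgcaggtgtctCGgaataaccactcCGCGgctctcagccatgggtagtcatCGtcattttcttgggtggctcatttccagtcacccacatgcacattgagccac
9930013L23Rik: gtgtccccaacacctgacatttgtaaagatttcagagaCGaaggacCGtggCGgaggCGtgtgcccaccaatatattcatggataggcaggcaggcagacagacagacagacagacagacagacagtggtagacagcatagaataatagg
Hoxd3 and Hoxd4: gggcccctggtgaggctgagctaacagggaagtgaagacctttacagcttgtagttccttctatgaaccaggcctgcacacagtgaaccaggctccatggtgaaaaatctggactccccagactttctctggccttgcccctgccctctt
The windows hold 17, 2, 7, 4 and 0 CpGs in this order. The Lingo2 peak overlaps a peak of the H1-TKO list that was given to another gene, so its place among WT-only genes reflects the choice of the nearest start.

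Of the 5821 genes, 3168 had a peak in both lists, 1525 in the WT list only and 1128 in the H1-TKO list only. With the same number of top-scoring peaks in each list, 1247 genes were in WT only and 1224 in H1-TKO only, and with a score of at least 100 these counts were 718 and 436. Among the 22367 protein-coding genes, 2579 were marked in both (11.5%), 1057 in WT only (4.73%) and 764 in H1-TKO only (3.42%), and these shares are the background for the gene lists below. Protein-coding genes in both lists held the upper ranks, with a median percentile of 73.9 in the WT list and 71.3 in the H1-TKO list. Genes in 1 list lay low: the median was the 30.9 percentile for WT-only genes (quartiles 15.2 and 53.6) and the 29.5 percentile for H1-TKO-only genes (15.5 and 49.7). Only 61 WT-only genes (5.77%) and 38 H1-TKO-only genes (4.97%) had a peak above the 75 percentile of their list, against 1244 of the genes in both in WT. The peaks of genes in 1 list were also narrower and farther from the start: the median width was 323 bp in WT-only and 306 bp in H1-TKO-only genes, against 908 bp for the WT peaks of genes in both. A peak centre within 5 kb of the start was found for 66.5% of WT-only, 59.9% of H1-TKO-only and 79.7% of shared genes. Assignment to the nearest start split few shared regions, since 30 WT-only and 30 H1-TKO-only genes had a peak overlapping one of the other list. In the other direction, 374 of the 3168 shared genes had peaks at different places in the 2 lists, with none overlapping.

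**Figure D1:**
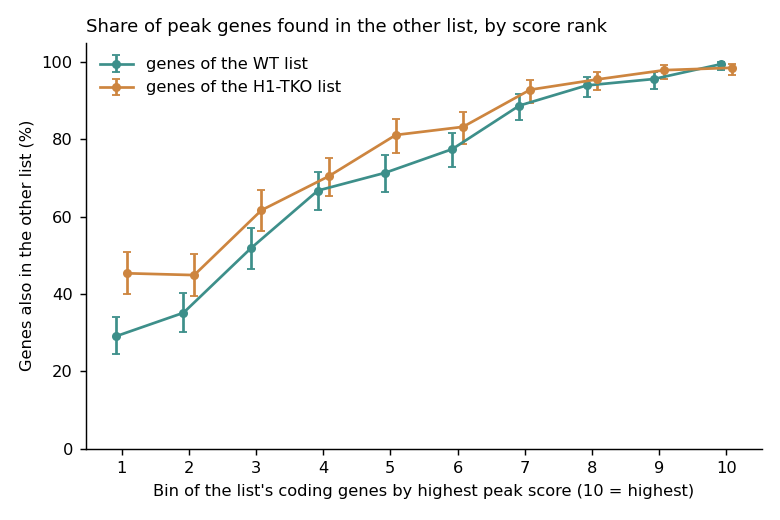
Share of protein-coding genes of each peak list that also had a peak in the other list (y axis, %), in 10 bins of the genes ranked by highest peak score (x axis), with exact 95% binomial intervals as bars. The share climbed from 29.1% in the lowest to 99.4% in the highest bin of the WT genes, and from 45.4% to 98.5% in the H1-TKO genes.

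Whether a gene was found in both lists followed its score rank. In the lowest of 10 rank bins of the 3636 coding genes of the WT list, 106 of 364 (29.1%, 24.5 to 34.1) also had an H1-TKO peak, and in the highest bin 361 of 363 (99.4%, 98.0 to 99.9). Among H1-TKO genes the share went from 152 of 335 in the lowest bin to 329 of 334 in the highest. For the main gene lists below, the share found in the other list is therefore given beside that of all coding genes of the same ranks. Of the marked noncoding genes, not matched for rank, both lists held 150 of 271 lincRNA genes (55.4%, 49.2 to 61.4), 122 of 319 pseudogenes (38.2%, 32.9 to 43.8) and 38 of 130 snRNA genes (29.2%, 21.6 to 37.8), against 58.6% of the marked coding genes.

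The highest ranks of both lists were taken by predicted genes, beside some genes of known function. The 68 highest WT peaks and the 61 highest H1-TKO peaks (the top 1%) all overlapped a peak of the other list, and 25 and 21 of them lay beside a gene that is not protein-coding. These peaks were narrower than those that followed, with a median of 666 bp in WT against 1697 bp in the next 611 peaks, and 55.9% of them were within 5 kb of a gene start against 77.4%. By mean percentile the leading coding genes were the predicted genes Gm10800 (scores 2478 in WT and 2485 in H1-TKO), Gm10722 (1471 and 1592), Gm4694 (1414 and 1476) and Gm10801 (1238 and 1109). Of the others among the first 10, 4930468A15Rik stood at 878 and 891, Sfi1, which encodes a centrosome protein, at 987 and 575, and Gm10717 at 962 and 546. Of the 3 knocked-out genes, Hist1h1d (945 and 968) and Hist1h1c (846 and 893) stood among them, and Hist1h1e (429 and 728) stood lower, at percentiles of 98.9 in WT and 99.6 in H1-TKO. Gm10800 and Gm10801 lie in repeated sequence, where the placement of reads is uncertain. Whether the other leading genes, or AY036118 at the score ceiling, also lie in repeats was not checked. The first gene of neurons was Cdk5r2, an activator of the kinase Cdk5, at 589 in WT and 534 in H1-TKO, with broad peaks 1067 bp and 1110 bp from its start.

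Genes for developmental transcription factors were marked far more often than coding genes at large. Of the 302 members of 7 families, 150 were in both lists (49.7%, 43.9 to 55.5), 39 in WT only, 22 in H1-TKO only and 91 in neither, beside 11.5%, 4.73% and 3.42% of all coding genes. Their share in both was 32.8% with peaks within 5 kb of a start and 17.9% with a score of at least 100, where all coding genes were at 9.33% and 5.32%. Of their 189 WT genes, 79.4% (72.9 to 84.9) were also in the H1-TKO list, against 69.7% of all coding genes at the same ranks. Their ranks were not high, with a median percentile of 59.8 in WT against 63.3 for all WT coding genes. They carried several peaks more often, only 55.0% having a single WT peak against 65.2%, and 60.8% had the highest WT peak within 5 kb of the start against 75.9%.

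Homeobox genes outside the Hox clusters and related factors, which specify body regions and neuron types, had 80 of 124 members in both lists, 18 in WT only and 8 in H1-TKO only. The 80 include 3 nuclear receptors, Nr2f1, Nr2f2 and Nr2f6, and Gsx2 stands 2 times among the 18 because the annotation holds 2 records of it. Tlx2, a factor of neural crest derivatives, had the highest mean of the 2 percentiles, with scores of 325 in WT and 341 in H1-TKO (percentiles 96.9 and 98.2). Irx5 scored 384 and 245, with peaks 103359 and 103052 bp from its start, Nkx2-1, a regulator of lung and thyroid, 221 and 266, and Lhx5 306 and 144. Of the WT-only members Isl1, a motor neuron and heart factor, led at the 68.5 percentile with a peak 15933 bp away, followed by Tlx1 at 57.0 (7997 bp) and Gsx2 at 55.3 (896 bp). Of the H1-TKO-only members Barhl2 (60.8), Tlx3 (60.2) and Six5 (51.9) led.

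Among basic helix-loop-helix genes, which drive neurogenesis and myogenesis, 30 of 46 were in both lists and 3 in each list alone. Hes2 scored 391 in WT and 392 in H1-TKO, while Mesp1, an early mesoderm factor, stood at the 75.5 percentile in WT and 29.2 in H1-TKO. Hand2 (67.2), Ptf1a (62.6) and Twist1 (46.8) were in WT only, the Ptf1a region also holding an overlapping H1-TKO peak given to another gene, and Neurog2 (50.1), Hey2 (17.9) and Neurod6 (7.6) in H1-TKO only. The Sox genes had 12 of 19 members in both and none in WT only. Sox30 stood at the 95.0 and 95.2 percentiles and Sox18, of endothelium, at 96.8 and 84.2, whereas Sox3 stood at 59.8 and 7.3, and Sox12 (29.2) and Sox9 (27.7) were in H1-TKO only.

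The T-box genes had 8 of 16 members in both lists, 4 in WT only and none in H1-TKO only. Of the 8 shared members 7 ranked lower in H1-TKO, beside 1393 of all 2579 shared coding genes. Eomes, which specifies endoderm and trophoblast, stood at 283 in WT and 99.1 in H1-TKO (percentiles 95.4 and 66.0). Tbr1 stood at 148 and 70.6 (percentiles 80.7 and 44.9). Tbx2, Tbx4, Tbx3 and Tbx22 were in WT only, at percentiles from 67.0 down to 5.8 and with peaks 6338 to 9953 bp from the start. Forkhead genes were split more evenly, with 10 of 43 in both, 6 in WT only and 5 in H1-TKO only. Foxo6 (185 and 205) led those in both, its highest peaks lying 408 bp from the start in WT and 18861 bp in H1-TKO. Foxj1, the regulator of motile cilia, stood at 228 and 102. Foxc2 was the highest WT-only member (70.3) and Foxp2 the highest H1-TKO-only member (36.8), and the endoderm factors Foxa1 (13.5) and Foxa2 (8.4) were in WT only. Of the 14 GATA, Zic and Gli genes 4 were in both. Gata3 (41.0), Gata6 (28.6) and Gata2 (10.6) were in WT only and Zic5 (70.2), Zic2 (43.0), Gli3 (37.1) and Gli2 (26.0) in H1-TKO only, all but Zic5 below the median of their list.

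**Figure D2:**
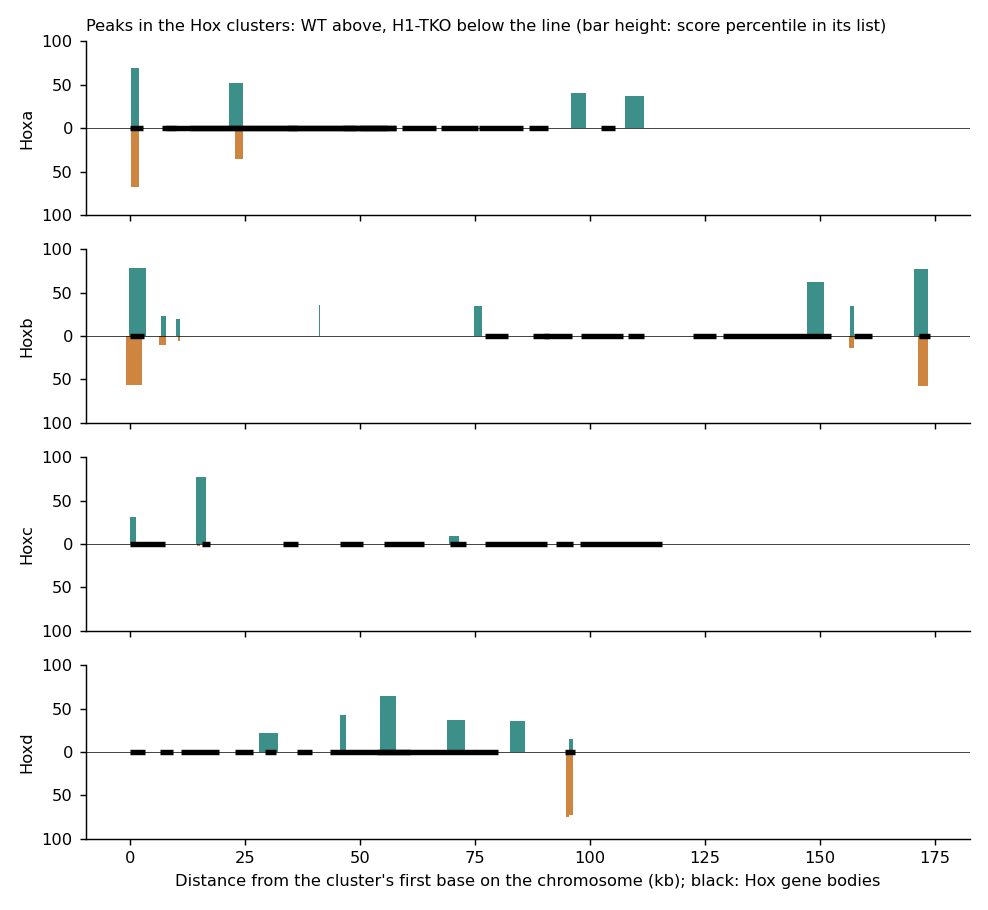
Peaks over the 4 Hox clusters (x axis, distance from the first base of the cluster in kb), drawn above the line for WT and below it for H1-TKO, with the score percentile in the peak's own list as height (y axis) and Hox gene bodies in black. There were 21 WT and 11 H1-TKO peaks, and in the Hoxd cluster the H1-TKO peaks were limited to Hoxd1. Both H1-TKO peaks of the Hoxc cluster were at or below the 2.01 percentile and are too low to see.

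The Hox genes, which pattern the body axis, were covered by fewer peaks in the H1-TKO list. Counted as nearest coding genes, 6 of 40 were in both lists, 5 in WT only and none in H1-TKO only, and the nearest start in these clusters was often that of a noncoding gene. Counted by position, the 4 clusters with 5 kb on each side held 21 WT peaks over 50.3 kb (9.46% of their length) and 11 H1-TKO peaks over 15.6 kb (2.93%). The covered length in H1-TKO was 0.31 times that in WT, against 0.862 times for all peaks. In the Hoxd cluster 6 WT peaks covered 17.0 kb with scores from 54.4 to 99.7, and the 2 H1-TKO peaks, at Hoxd1, covered 1.51 kb with scores of 115 and 119. Hoxd1 stood at the 14.7 percentile in WT and 74.4 in H1-TKO, while Hoxc12 stood at 76.9 and 2.01, Hoxb13 at 78.7 and 56.5 and Hoxb1 at 77.2 and 57.6. Hoxa11 (40.3), Hoxb9 (34.5), Hoxc13 (30.9), Hoxd9 (21.9) and Hoxc8 (9.43) were in WT only. The scores in these clusters reached 140 in WT and 119 in H1-TKO, so no Hox peak was above the 78.7 percentile of its list, and the Hox genes of the WT list were also in H1-TKO in 54.5% of cases against 54.7% of coding genes at the same ranks.

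Genes of secreted signals and their receptors were mostly shared where they were marked. Of 150 members, 77 were in both lists (51.3%, 43.0 to 59.6), 8 in WT only and 9 in H1-TKO only. Of the 85 marked in WT, 90.6% (82.3 to 95.8) were also marked in H1-TKO, against 81.5% of coding genes at the same ranks. The Wnt ligands, which control axis formation and stem cell renewal, had 18 of 19 members in both lists and none in 1 list alone, 12 of the 18 with their highest WT peak within 5 kb of the start. Wnt10a led at 300 in WT and 228 in H1-TKO, and Wnt6 was at 231 and 235. Wnt9a was at 114 and 194, the 70.9 and 89.7 percentiles. Of the 22 Fgf ligands 9 were in both. Fgf11 was at 261 and 246, and Fgf3, active in the developing inner ear, at 240 and 52.3, the 92.6 and 9.2 percentiles.

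The BMP, Nodal and TGF-beta ligands and antagonists had 15 of 35 members in both lists. Bmp6 stood at 351 in WT and 234 in H1-TKO (percentiles 97.6 and 93.6). The BMP antagonist Noggin (Nog) stood at 259 and 131 (93.9 and 77.9) and Bmp8b at 231 and 337 (91.7 and 98.1). Lefty1 (76.6) and Lefty2 (48.6), both Nodal antagonists expressed in mESCs, were in H1-TKO only with peaks 1055 bp and 2233 bp from the start. Both lie on chromosome 1. Desert hedgehog (Dhh) led the Hedgehog and Notch genes with 407.5 in WT and 171 in H1-TKO (percentiles 98.5 and 86.4). Jag2, a Notch ligand, was at 140 and 63.9 (percentiles 78.5 and 35.4), with no peak overlapping the other list. The axon guidance genes had 28 of 59 members in both, with the ephrin Efnb2 among the highest gene-start peaks of all, at 589 and 487. Sema3f (64.5) led the 6 in WT only and Slit3 (53.7) the 4 in H1-TKO only.

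Genes of differentiated neurons formed the other large marked group. Of 138 ion channel genes 64 were in both lists (46.4%, 37.9 to 55.1), 15 in WT only and 11 in H1-TKO only, with Scn8a counted 1 time in both and 1 time in WT only through 2 records. The potassium channel genes Kcnh1 (398 and 374) and Kcnk1 (310 and 304) were among the highest, the latter through a peak 144312 bp from its start. Kcnq3 (69.5) was the highest WT-only channel, with a peak 1094 bp from its start. Of 97 neurotransmitter receptor genes 42 were in both lists (43.3%, 33.3 to 53.7), led by the adrenergic receptor Adra2b (349 and 389) and the NMDA receptor subunit Grin2c (378 and 283). Of the 9 in WT only, the muscarinic receptor Chrm4 (82.1), the GABA receptor subunit Gabra2 (73.8) and the kainate receptor Grik3 (69.2) led, and the 4 in H1-TKO only reached the 36.5 percentile at most (Grin1, with a peak 13628 bp away). Across these 2 lists 81.0% and 82.4% of the WT genes were also in H1-TKO, against 77.3% and 82.7% at the same ranks.

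Solute carriers had 66 of 366 members in both lists (interval 14.2% to 22.4%) and collagens and laminins 12 of 54, with Slc5a5, the iodide transporter of the thyroid, at 529 and 365 and Col25a1 at 201 and 289. The collagen genes Col4a3 (75.7), Col4a4 (67.3) and Col1a2 (57.2) were in H1-TKO only, with peaks 380, 315 and 211 bp from the start, and Col4a3 and Col4a4 lie head to head on chromosome 1. Col8a2 (26.3), Col2a1 (23.6), Col9a3 (17.6) and Col6a6 (12.5) were in WT only. Of the 12 shared members 10 ranked lower in H1-TKO, with a median shift of −11.8 percentile points. Of all 2579 shared coding genes 1393 ranked lower, with a median shift of −1.15. Of 24 clustered protocadherins, cell-surface labels of neurons, 7 were in both, 6 in WT only, all of the beta cluster, and none in H1-TKO only. Pcdhb19 was the highest of these at the 76.7 percentile. Of 50 keratin genes 3 were in both lists (1.25% to 16.5%), an interval that holds the 11.5% of all coding genes. A further 3 were in WT only and 1 in H1-TKO only. Olfactory and vomeronasal receptors (9 of 1410 in both, 0.638%) were rarely marked. The highest of these receptors, Vmn1r238 at 515 and 480, lay 117571 bp from its peak.

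Germline genes had 13 of 89 members in both lists (14.6%, 8.0 to 23.7), led by Slc25a31, a testis ADP/ATP carrier, at 360 and 271, and by the synaptonemal complex gene Sycp1 at 321 and 179. The meiosis gene Tex15 stood at 201 and 68.0 (percentiles 88.7 and 41.3), with no peak overlapping the other list. Among imprinted genes, 15 of 41 were in both, 3 in WT only and 2 in H1-TKO only, with Kcnq1 at 151 and 148, Gnas (41.9) in WT only and Peg3 (44.9) in H1-TKO only, 31966 bp from the start.

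Among genes that mESCs use, ribosomal protein and respiratory chain genes were seldom or never in both lists, while naive pluripotency genes were outside both lists in 80.0% of cases, beside 80.3% of all coding genes. Of 80 cytosolic ribosomal protein genes, only Rpl29 was given a peak, 10291 bp away, and of 77 respiratory chain genes none was in both lists (0 to 4.68%), 2 were in WT only and 4 in H1-TKO only (5.19%, beside 3.42% of all coding genes). Of 25 naive pluripotency genes 4 were in both: Esrrb, through a peak 61141 bp from its start (293 and 210), Prdm14 (117 and 144), Gbx2 (107 and 127) and Nanog (55.9 and 55.6). The highest Gbx2 peak lay 409 bp from the start in WT and 35672 bp in H1-TKO. Tbx3 was in WT only. Of 32 genes of PRC1 and PRC2 subunits, 5 were in both, 4 in WT only and none in H1-TKO only. The chromobox gene Cbx8 stood at 243 and 182 and Cbx2 at 203 and 70.0. Phf19 (44.9), Cbx7 (37.6) and Rybp (29.0) were among those in WT only, with peaks 338, 9793 and 131687 bp from the start. Numbered Zfp zinc finger genes had 25 of 365 members in both (6.85%), fewer than coding genes at large, 17 in WT only and 10 in H1-TKO only. Zfp319 stands in each of the last 2 counts because the annotation holds 2 records of it, and its region was marked in both lists (386 and 303).

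The highest coding genes in WT only with a peak within 5 kb of the start were, after Gm1568 (400), Zfp319 (386) and Lingo2 (237), whose peaks overlap the H1-TKO list, 9930013L23Rik (231, percentile 91.8), Grrp1 (221), Slc25a21 (217), Fam113b (201), Mab21l2 (196), Slc9a5 (195) and Adamts3 (193). Mab21l2 takes part in eye development, Slc9a5 is a sodium-proton exchanger of neurons and Adamts3 processes collagen and VEGF-C. In H1-TKO only, apart from Zfp319 and Ankrd34b (281), whose peaks overlap the WT list, the highest were Zcchc2 (291, percentile 96.8), Speg (258), Celsr1 (246), Dlgap4 (207), Rab11fip3 (200.0), Efemp2 (196), Rassf1 (186) and Ttll8 (178). Speg is a kinase of striated muscle, Celsr1 a cadherin of planar cell polarity, Dlgap4 a synaptic scaffold protein and Rassf1 a tumour suppressor.

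Chromosome 1 held more of the H1-TKO-only genes than any other chromosome: 90 of its 1238 coding genes (7.27%, 5.89 to 8.86), against 674 of 21129 (3.19%) elsewhere and 1.93% to 5.25% on the other chromosomes with at least 100 coding genes. Zcchc2, Speg, Lefty1, Lefty2, Col4a3 and Col4a4 are among them. Genes in both lists were also most frequent there (18.8%), while 4.12% were in WT only against 4.76% elsewhere. Whether the copy number of chromosome 1 differed between the cells was not tested. On the X chromosome 1.82% of coding genes were in both lists, 1.72% in WT only and 1.93% in H1-TKO only.

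**Figure D3:**
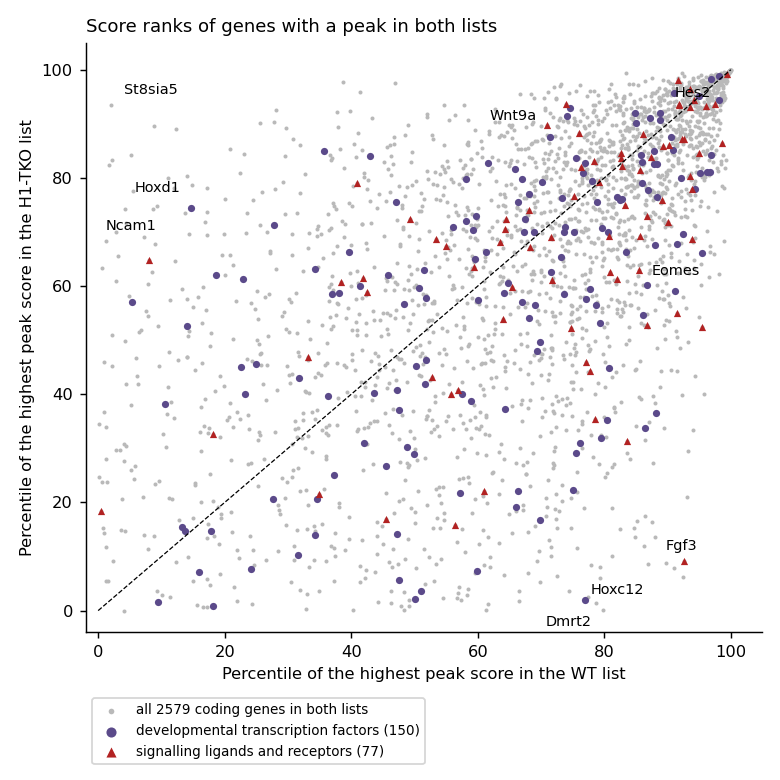
Percentile of the highest peak score in the WT list (x axis) and in the H1-TKO list (y axis) of the 2579 protein-coding genes with a peak in both lists, with developmental transcription factors and signalling genes in colour and equal percentiles as a dashed line. Genes crowd near the line in the upper right corner and scatter widely below about the 80 percentile.

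Among genes marked in both lists, the ranks ran together but loosely. Spearman's rho of the 2 percentiles was 0.647 across the 3168 genes and 0.644 across the 2579 coding genes, which are not independent replicates. The median shift from WT to H1-TKO was −1.15 percentile points (quartiles −15.0 and 8.89), 1393 coding genes standing lower and 1185 higher in H1-TKO. The percentile was lower by over 30 points in H1-TKO for 297 genes and higher by over 30 for 185. Among the developmental transcription factors 90 of 150 stood lower and the median shift was −5.44 points. Of the 77 shared signalling genes 46 stood lower, with a median shift of −3.62. Beside gene starts the percentile was lower in H1-TKO by the most at Cmtm1 (scores of 238 in WT and 51.5 in H1-TKO), Fgf3, Adamts19 (221 and 51.9), the peptide hormone gene Adm (209 and 52.2) and Dmrt2, a factor of the dermomyotome (144 and 50.01). It was higher by the most at St8sia5, a sialyltransferase of neurons (50.6 and 232), 6230427J02Rik (50.5 and 149), Mex3d (52.4 and 193), the myelin gene Mbp (51.4 and 129) and the neural adhesion gene Ncam1 (51.1 and 119). Each of these 10 genes had a peak overlapping the other list, and 1 of its 2 scores lay near the calling limit of 50.

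Peaks found in both lists lay in DNA with more CpG than peaks of 1 list. The median ratio of observed to expected CpG in 300 bp around the centre was 0.478 for the 3726 WT peaks that overlapped an H1-TKO peak and 0.298 for the 3063 that did not. In the H1-TKO list it was 0.468 and 0.245, and it was 0.597 at all protein-coding gene starts. A dense window, with at least 50% G and C and a ratio of at least 0.6, was found in 34.7% of overlapping WT peaks and 14.8% of the others, and in 34.7% and 13.4% of the H1-TKO peaks. The order held near gene starts: within 5 kb the medians were 0.512 and 0.351 in WT and 0.512 and 0.306 in H1-TKO, and farther away 0.364 and 0.243, and 0.354 and 0.195. It also held within 4 bins of the score ranks, from 0.305 and 0.246 in the lowest to 0.592 and 0.471 in the highest bin of the WT list, and from 0.406 and 0.212 to 0.563 and 0.279 in the H1-TKO list.

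Over the 4 RNA-seq libraries, genes marked in both lists had the lowest median expression, while genes without a peak had the lowest first quartile. The median was 5.31 normalised counts per kb of exon (quartiles 1.09 and 24.3) for the 1618 coding genes of that class with a single RefSeq transcript, 9.40 (1.18 and 54.1) for 632 WT-only genes and 20.2 (2.15 and 89.7) for 449 H1-TKO-only genes, against 19.1 (0.411 and 157) for 10928 genes without a peak. Over 100 counts per kb was reached by 8.65% of genes in both lists, 16.6% in WT only, 22.9% in H1-TKO only and 31.8% without a peak. A value of 0 in all 4 libraries was found for 49 genes in both lists, 39 in WT only, 18 in H1-TKO only and 1899 without a peak. Among the 3 marked classes the order of medians was the same for genes with a peak within 5 kb of the start. These medians were 5.28, 9.92 and 18.9, all below the 19.1 of genes without a peak. Each class held genes at both ends, shown by examples chosen after their values were seen. In the shared class Tlx2 was listed at 0.00 in 3 of the 4 libraries and at 2.06 counts per kb in the other, and Jag2 at 154 to 204. Of the WT-only class Hand2 was listed at 0.00 throughout and Ripk4 at 47.2 to 135, and of the H1-TKO-only class Neurog2 at 0.00 to 0.946 and Sox12 at 115 to 169.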

How the data were processed

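H3K27me3 ChIP-seq peaks of 1 library per genotype and RNA-seq tables of 4 libraries were used. Alignment by the authors (Bowtie2, mm9) was followed by removal of PCR duplicates and of reads that were not unique. They called peaks with MACS at a p-value limit; the score in the deposited lists is −10 log10 of that p-value, and their notes differ on a further FDR filter and on a second caller, PeakSeq. No blacklist is mentioned. The RNA tables hold a signal the authors made: featureCounts read counts divided by DESeq2 size factors; 33646 of 34010 transcript accessions matched a symbol of RefSeq (GRCm38.p6, names only), and 13627 coding genes with a single accession were used. Gene starts were the 5′ ends of GENCODE M1 gene records. Overlap meant at least 1 bp. A list's share at the same ranks is the mean share of shared genes in the rank bins of its members. Scripts ran in Python 3.11.15 with numpy 2.4.6, pandas 2.3.3, scipy 1.17.1 and matplotlib 3.10.9 and were tested on simulated peaks.

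Named genes were the 10 highest coding genes of each class and the 5 largest rank shifts in each direction, with a peak within 5 kb of the start, up to 4 leading members per gene list and the knocked-out genes; further members of the lists, the 9930013L23Rik and Hoxd sequences, and the Hox intervals were chosen after their values were seen. A few genes that the rule names are not reported here. Members and lists were chosen with earlier results of these data known. No test was run, since each genotype had 1 list. The alternatives concern gene assignment, peak subsets, the score limit, peak merging, the rank measure and the CpG window.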

Additional observations from a re-analysis of the deposited data

Results flagged for a closer look

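Outside the assembled chromosomes, 168 WT and 155 H1-TKO peaks lay on random contigs or the mitochondrial genome and were in no comparison. Of these, 150 and 139 were on the unplaced contig set and 7 and 6 on the mitochondrial genome. With 106 for WT and 108 for H1-TKO, their median score was above the medians of 78.1 and 75.7 on the assembled chromosomes, and the highest stood at the ceiling of 3100 in both lists.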

How the results depend on the processing

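Over 9 alternatives for each of the 3 gene counts, 22 of 27 values stayed within 1.5 times of 3168, 1525 and 1128 genes. With peaks within 5 kb of a start, 970 genes were in WT only and 643 in H1-TKO only. With a score of at least 100 the counts were 1406 in both, 718 in WT only and 436 in H1-TKO only. With the same number of top-scoring peaks in each list (6107) they were 3072, 1247 and 1224, so WT-only and H1-TKO-only genes were nearly equal in number. Counting a gene as shared where its peak overlapped one of the other list, an alternative chosen after seeing the data, gave 3228, 1495 and 1098. Distances from the peak edge gave the same counts as distances from its centre. That result was fixed in advance, since both measures choose the same start. These counts are among the 22 values and are no check on the assignment.

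The share of developmental transcription factor genes in both lists, 49.7%, became 58.6% with protein-coding starts only, 32.8% with peaks within 5 kb and 17.9% with a score of at least 100, where all coding genes were at 13.8%, 9.33% and 5.32%, so their share was above that of all coding genes in each. The rank correlation across shared genes, 0.647, was 0.483 with the mean percentile of a gene's peaks and 0.615 with peaks within 5 kb. The median CpG ratio of overlapping WT peaks, 0.478, was 0.529 over whole peaks. No paired analysis was possible because no test was run on 1 list per genotype. The reads behind each peak are not in the lists, so genes in 1 list near the calling threshold cannot be told apart from genes missed in the other.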
